A study of Homo sapiens with 38 samples.

Results

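Naive human embryonic stem cells of the Shef6 line were compared with the same cells after 8 days in N2B27 on Geltrex. The comparison took 6 of the 38 libraries of the series: 2 libraries of N2B27 at day 8, and the 4 naive libraries of the same experiment, of which 2 came from cells on a serum coating and 2 from cells on Geltrex, a basement membrane matrix. Libraries were chosen by their labels alone. Naive cells were kept in PXGL, which is N2B27 basal medium with the MEK inhibitor PD0325901, the tankyrase inhibitor XAV939, the PKC inhibitor Gö6983 and human LIF. The study also added a ROCK inhibitor to naive medium after passaging. The naive libraries are named PXGLY, and whether this inhibitor was present at harvest is not stated. The day 8 cells derived from naive cells adapted to the serum coating, which were dissociated and seeded on Geltrex in N2B27 with a ROCK inhibitor, and then kept in N2B27 with none of these additions. Thus the day 8 cells differed from naive cells in all PXGL components at once as well as in time, and these cannot be told apart in this comparison. Shef6 is a single established line, and the replicates of a group were parallel libraries of 1 experiment, so that p-values measure the spread between these libraries only.

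Naive pluripotency corresponds to the epiblast before implantation. It is held in culture by blocking MEK and ERK, the kinases through which FGF signals, and by blocking WNT signals through tankyrase. When the inhibitors are withdrawn, cells lose naive transcription factors and pass through a formative state, in which they gain the ability to answer signals that direct them to germ layers. N2B27 carries no added FGF, NODAL or WNT ligand.

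Total counts per library were between 4383985 and 5577221, and 22775 to 25263 genes had at least 1 count. The mitochondrial share of counts ran from 2.42% to 3.48% and that of ribosomal proteins from 8.62% to 10%. Naive serum replicate 1 had the highest mitochondrial share, and its counts differed from the naive Geltrex libraries by a chi-square per degree of freedom of 7.28 and 10.3, against 2.52 to 3.95 for the other pairs of naive libraries apart from its own replicate. No pair of libraries agreed within sampling noise, so that all 6 were counted. This does not show that they came from separate cultures. The study calls the libraries of a group technical replicates in some figure legends and biological ones in another. POU5F1, the core pluripotency factor, was at 561, 390, 363 and 365 CPM (counts scaled to a common library size with TMM factors) in the naive libraries and at 275 and 360 CPM at day 8, so that this marker of the labelled cell type was present in all 6. Values in the rest of the text are given in this order: naive on serum replicates 1 and 2, naive on Geltrex replicates 1 and 2, and day 8 replicates 1 and 2.

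Of 16674 genes tested, 4247 were called, 25.5% of them, with 2980 (17.9%) higher and 1267 (7.6%) lower at day 8. A gene was called when the edgeR quasi-likelihood test gave a Benjamini-Hochberg adjusted p under 0.05 and the log2 fold change passed 1 in size. For 4187 of the called genes the 2 day 8 libraries lay outside the range of the naive libraries, which was also the case for 59.7% of all genes tested. Over all genes tested the log2 fold change had a median of -0.013. Every count of list members called against naive cells below is to be read beside the shares of all genes, 17.9% higher and 7.6% lower. Between the naive coatings 8 genes were called (0.048%), 4 of which were also called against day 8. That count was 0 without serum replicate 1 or without Geltrex replicate 2, 1 without Geltrex replicate 1 and 139 without serum replicate 2. Bulk RNA cannot tell fewer cells of a type from less RNA per cell, and this holds for every gene below.

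**Figure D1:**
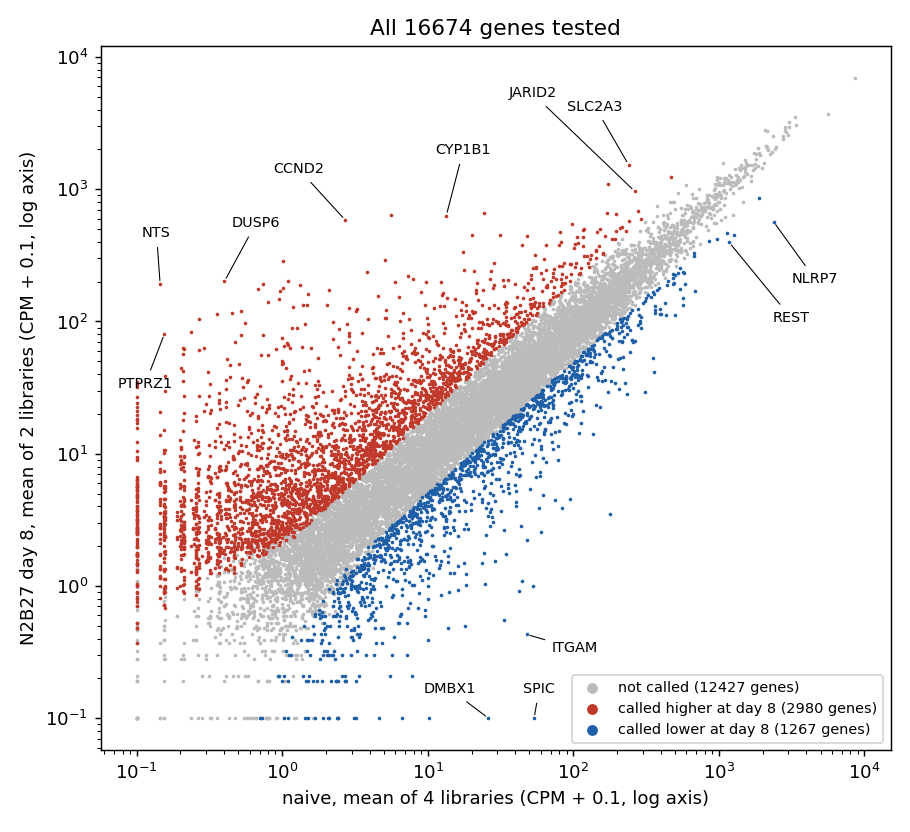
Mean level of each gene in the 4 naive libraries (horizontal axis) and the 2 N2B27 day 8 libraries (vertical axis), both as CPM + 0.1 on log axes. Red points are the 2980 genes called higher and blue points the 1267 called lower. Genes with no naive count line the left edge.

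The largest rises were in genes with few or no naive counts. Positions are those of GENCODE v44 on GRCh38. NTS, which encodes the secreted peptide neurotensin (chromosome 12, 85874295-85882992), was at 0, 0, 0 and 0.180 CPM in naive cells and at 201 and 182 CPM at day 8. With 1 count in all naive libraries, the ratio was 3637 with a 95% interval of 652 to 143700, which covers counting error only. SPRY4, an inhibitor that ERK signalling induces against itself (chromosome 5, 142310427-142326455), had no naive count and reached 35.7 and 33.8 CPM, at least 220.5-fold higher. All lower bounds of this kind were computed against 3 counts over the whole group at 0. DUSP6, the phosphatase that inactivates ERK (chromosome 12, 89347235-89352501), went from 0.221, 0.218, 0.224 and 0.541 to 205 and 197 CPM, a log2 fold change of 9.20 ± 0.24 (SE, edgeR adjusted p = 1.737e-25).

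The other members of the 12 largest rises included secreted and surface proteins. CER1, a secreted antagonist of NODAL and BMP (chromosome 9, 14719724-14722733), had no naive count and was at 34.8 and 28.5 CPM at day 8, at least 199.6-fold higher. SFRP2, a secreted WNT antagonist, rose from 0 in all 4 naive libraries to 22.03 and 22.6 CPM, at least 142-fold. PTPRZ1, a receptor-type phosphatase of neural progenitors, had 1 naive count and was at 80.0 and 81.1 CPM at day 8, a ratio of 1539 (95% interval 275.5 to 60860). ERBB4, a receptor for neuregulins, had 3 naive counts, all in 1 library, and was at 120 and 86.9 CPM at day 8. ANKRD1, a target of the YAP and TEAD factors, had 1 naive count and was at 43.4 and 33.8 CPM. The lncRNA GATA6-AS1 had no naive count and was at 31.5 and 21.9 CPM. It is transcribed next to GATA6 on the other strand, and the strand setting of the counting is not given in the sources used here. CST1, CST4 and CST2, neighbouring cystatin genes between positions 23685640 and 23826729 of chromosome 20, had no naive count and were at 33.1 and 33.6, 20.7 and 27.5, and 24.01 and 17.7 CPM. Cystatins of this cluster are near-identical, so that reads may be shared between them.

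Among the 12 largest falls, 2 genes had no count left at day 8. SPIC, an ETS-family transcription factor of naive cells (chromosome 12, 101475336-101486997), was at 52.5, 56.99, 55.4 and 49.97 CPM and then at 0 in both day 8 libraries, at least 180-fold lower. DMBX1, a homeobox factor (chromosome 1, 46489836-46516216), was at 25.5, 27.5, 24.9 and 26.3 CPM and also fell to 0, at least 87.6-fold lower. ITGAM, the integrin alpha M chain best known from myeloid cells, was at 48.9, 48.5, 45.1 and 48.4 CPM in naive cells and at 0.661 and 0 CPM at day 8, a ratio of 160 (95% interval 54.7 to 779). OLAH, a thioesterase that releases medium-chain fatty acids, fell from 27.5, 33.8, 34.6 and 37.9 to 0 and 0.903 CPM.

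The remaining falls kept a measurable level. FAM151A was at 216, 216, 176 and 108 CPM and then at 3.75 and 3.07 CPM, 52.4-fold lower (edgeR adjusted p = 3.76e-17). RGCC, a regulator of the cell cycle, was at 70.6, 62.0, 35.5 and 44.2 CPM against 0.881 and 0.903. Its serum libraries lay above the Geltrex libraries, with both far above day 8. The class I molecule HLA-F fell 43.5-fold, REEP1 of the endoplasmic reticulum 24.9-fold, the glycoprotein GPNMB 21.7-fold, the epithelial ETS factor ELF3 21.6-fold and EXPH5, a Rab27 effector, 20.7-fold. None of the 24 genes overlapped between naive and day 8 libraries, which is part of the rule that chose them.

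**Figure D2:**
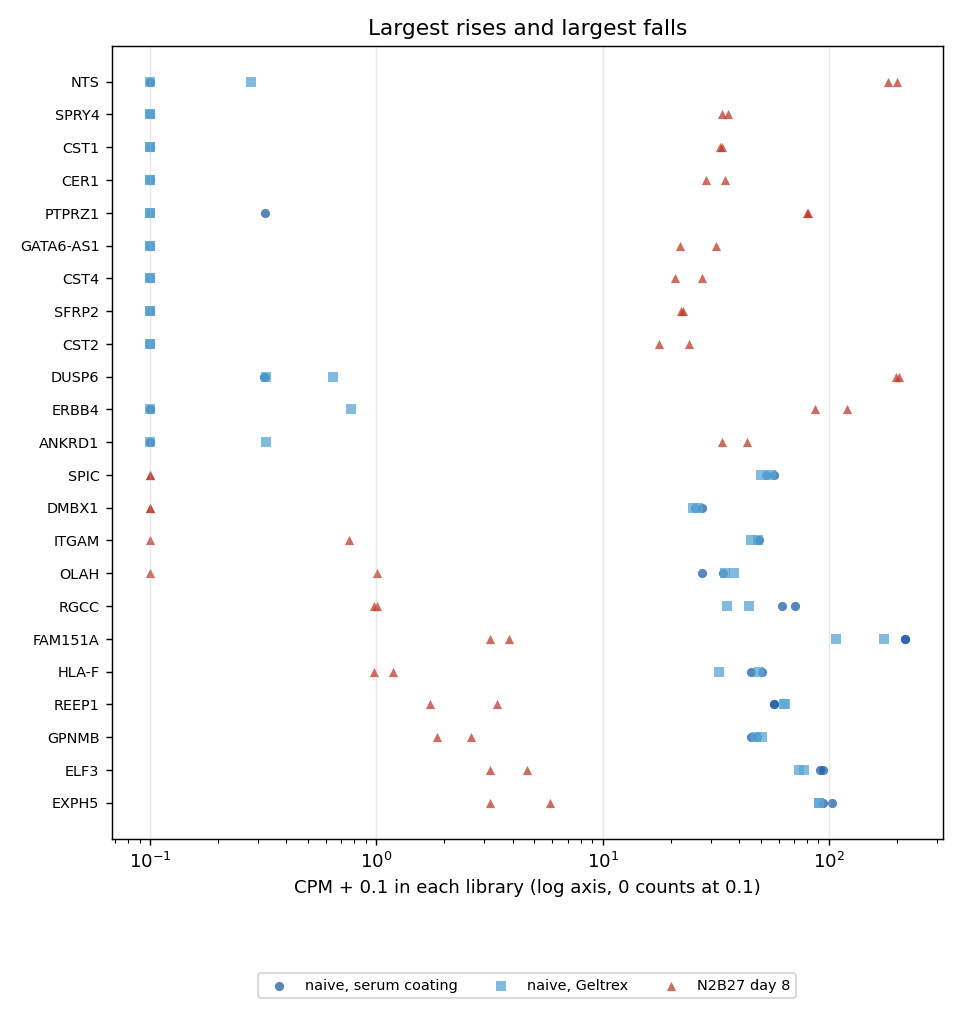
Level of the 12 largest rises and of the largest falls named in the text in each of the 6 libraries, as CPM + 0.1 on a log axis, with naive libraries in blue and N2B27 day 8 libraries in red. For every gene the 2 day 8 libraries stand apart from the 4 naive libraries, and 7 of the rises have no count in any naive library.

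The regions around the start sites of 4 of these genes are shown because naive cells are known for low DNA methylation, which falls on the dinucleotide CpG and was not measured here. They are the falls to no counts and the rises with the highest ratios. Each runs 5′ to 3′ from 250 bases before to 50 after the start site, on the plus strand of GRCh38.p14 as RefSeq annotates it, with each CG in capitals. SPIC (chr12:101475086-101475385) and DMBX1 (chr1:46489586-46489885), which fell to no counts, hold 1 and 37 CG.
SPIC: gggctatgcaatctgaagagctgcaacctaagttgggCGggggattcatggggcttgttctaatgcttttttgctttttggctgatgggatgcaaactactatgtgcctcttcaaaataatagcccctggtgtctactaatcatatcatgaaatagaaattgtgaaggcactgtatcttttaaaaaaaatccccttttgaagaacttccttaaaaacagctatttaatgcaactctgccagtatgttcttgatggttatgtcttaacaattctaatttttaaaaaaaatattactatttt
DMBX1: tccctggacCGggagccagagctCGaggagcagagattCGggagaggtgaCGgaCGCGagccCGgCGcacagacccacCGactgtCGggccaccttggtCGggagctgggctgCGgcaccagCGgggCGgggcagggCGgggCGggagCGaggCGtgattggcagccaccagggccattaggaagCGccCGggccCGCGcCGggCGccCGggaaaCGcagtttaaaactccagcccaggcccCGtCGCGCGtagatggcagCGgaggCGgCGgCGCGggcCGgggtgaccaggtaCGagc
NTS (chr12:85874045-85874344) and PTPRZ1 (chr7:121872911-121873210), the rises with 1 naive count and the highest ratios, hold 2 and 38.
NTS: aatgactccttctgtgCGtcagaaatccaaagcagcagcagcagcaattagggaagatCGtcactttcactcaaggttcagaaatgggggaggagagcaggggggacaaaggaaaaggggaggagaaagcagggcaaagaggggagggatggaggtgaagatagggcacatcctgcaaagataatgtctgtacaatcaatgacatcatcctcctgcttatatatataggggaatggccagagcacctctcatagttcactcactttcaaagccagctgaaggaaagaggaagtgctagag
PTPRZ1: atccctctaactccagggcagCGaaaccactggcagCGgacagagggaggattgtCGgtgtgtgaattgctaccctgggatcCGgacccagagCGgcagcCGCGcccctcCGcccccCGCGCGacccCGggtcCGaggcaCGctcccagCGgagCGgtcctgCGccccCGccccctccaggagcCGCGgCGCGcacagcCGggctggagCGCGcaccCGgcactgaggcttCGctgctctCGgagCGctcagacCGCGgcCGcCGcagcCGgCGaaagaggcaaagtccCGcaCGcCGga
A comparison of CG counts over all called genes is void, since the promoter table covered only 76% of the protein-coding genes called higher.

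The called genes with the highest levels that rose were SLC2A3, ENO1, FN1, JARID2, TERF1 and CALD1. SLC2A3, the glucose transporter GLUT3, went from 228, 232, 266 and 235 to 1604 and 1455 CPM, 6.37-fold. FN1, the matrix protein fibronectin, rose 6.28-fold, from 174 ± 7.04 to 1094 ± 99.3 CPM (SD, n = 4 and 2). The glycolytic enzyme ENO1 rose 2.59-fold, TERF1 of the telomere 2.47-fold and CALD1, which binds actin and myosin, 3.90-fold. Those that fell were NLRP7, PRDX1, MT1G, REST, NLRP2 and NDUFAB1. NLRP7, a maternal-effect gene, fell 4.19-fold from 2076, 2354, 2590 and 2498 to 537 and 599 CPM, and its neighbour NLRP2, which it overlaps on the other strand, 2.46-fold. REST, which represses neuronal genes in other cells, fell from 1037, 1158, 1260 and 1248 to 417 and 378 CPM, 2.96-fold. The peroxidase PRDX1 fell 2.19-fold and the complex I carrier protein NDUFAB1 2.32-fold.

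General pluripotency genes stayed expressed. Of 14 listed and tested, 4 rose and 1 fell (28.6% and 7.14%, against 17.9% and 7.6% of all genes). The other 9 were not called, and the median log2 fold change was -0.038. NANOG was at 947, 1163, 1105 and 1129 CPM in naive cells and at 802 and 721 CPM at day 8, and SOX2 at 258 to 274 CPM against 209 and 226 CPM. Neither passed the fold threshold, with log2 fold changes of -0.51 ± 0.09 and -0.30 ± 0.10 (SE). LIN28A, which binds let-7 precursors, rose 2.39-fold, DPPA2 3.74-fold, and the forkhead factors FOXD3 and FOXO1 5.20-fold and 5.96-fold. PRDM14, a transcriptional regulator of naive and germ cells, fell from 36.3, 40.8, 32.5 and 40.2 to 6.39 and 9.57 CPM.

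Naive markers fell in most, not all, cases. Of 19 naive transcription factors tested, 10 fell, 1 rose and 8 were not called (median -1.005). KLF4 went from 175, 151, 109 and 110 to 12.8 and 15.2 CPM, 9.68-fold lower (edgeR adjusted p = 3.52e-15), and KLF2 and KLF5 fell as well. TBX3 was at 123 to 137 CPM in naive cells and at 148 and 113 CPM at day 8, with overlap, and TFAP2C was at 321 to 465 against 343 and 283 CPM. The 1 rise was GBX2, from 0.655 to 0.902 up to 7.93 and 7.77 CPM, a factor that supports naive cells in the mouse. Of 20 other naive markers, 14 fell, 1 rose and 5 were not called (median -1.38). FGF4, the ligand that epiblast cells send to the hypoblast, fell 8.70-fold to 41.4 and 40.8 CPM, the phosphatase ALPG 3.69-fold and KHDC1L 4.24-fold. KHDC3L, of the maternal complex, was at 251, 277, 295 and 298 CPM against 306 and 285 CPM, and the pyrimidine salvage enzyme UPP1 at 163 to 186 against 130 and 154 CPM. Several markers of these lists and of the next are shown by the study for these libraries, among them TFCP2L1, SUSD2 and DPPA5, so that the counts are not independent evidence of a direction.

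Formative and primed genes rose in 21 of 24 cases (17.9% of all genes did), with a median log2 fold change of 3.87. ZIC2 and SOX11, transcription factors of the formative state and of the early neural plate, went from 0.845 ± 0.083 to 147 ± 10.2 CPM and from 1.22 ± 0.512 to 188 ± 18.8 CPM (SD, n = 4 and 2). SALL1, SALL3, SOX3 and OTX2 rose 2.13 to 4.78 on the log2 scale. THY1, a surface protein by which primed cells are sorted, had 2 naive counts and was at 65.7 and 57.8 CPM at day 8. CD24, a surface marker of the same use, rose from 106 to 130 up to 510 and 471 CPM. HESX1 fell, from 5.24 to 10.6 to 2.86 and 2.89 CPM. ZIC1 was at 4.51 to 5.84 against 2.20 and 3.25 CPM, not called except without day 8 replicate 2 (log2 fold change -1.20), while FGF5 had 2 naive and 1 day 8 count in all and could not be tested.

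Of 12 genes of the DNA methylation machinery 1 rose and 4 fell (8.33% and 33.3%, against 17.9% and 7.6% of all genes). DNMT3B, a de novo methyltransferase, rose 2.03-fold from 331, 308, 280 and 250 to 563 and 621 CPM. This call is close to the fold threshold. The log2 fold change was 0.94 without day 8 replicate 2, 0.97 without naive Geltrex replicate 2, 0.89 with naive serum alone and 0.995 with no filter. DNMT3L, its catalytically inactive partner in germ cells and naive cells, fell 6.72-fold, and TET2, which oxidises methylated cytosine, fell 5.54-fold from 57.1, 46.1, 31.2 and 34.8 to 6.61 and 8.49 CPM. UHRF1, which brings the maintenance enzyme to replicated DNA, fell 2.87-fold, and DNMT1 itself was at 153 to 174 against 186 and 199 CPM. Within polycomb repressive complex 2, which methylates histone H3 at lysine 27, 2 of 13 rose and 2 fell (15.4% each, against 17.9% and 7.6% of all genes). JARID2, a subunit that targets the complex, rose 3.65-fold from 259, 273, 279 and 247 to 959 and 972 CPM. The core subunit SUZ12 fell 2.17-fold from 309, 309, 319 and 300 to 144 and 141 CPM, and the catalytic EZH2 was at 168 to 221 against 155 and 146 CPM.

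The listed ERK targets rose throughout. All 20 tested genes of the 21 on the list of ERK feedback inhibitors and targets were called higher (17.9% of all genes were), with a median log2 fold change of 4.79. This list was written with earlier results of these data known, so that its count is not independent evidence. DUSP6, ETV4 and ETV5 are also on the formative and primed list. SPRED3, with 2 naive and 5 day 8 counts, was not tested. The feedback inhibitors include the Sprouty proteins, the Spred proteins and the dual-specificity phosphatases. SPRED1 rose from 1.55, 3.06, 2.69 and 3.79 to 80.4 and 82.6 CPM, and DUSP5 from 2.53 to 3.82 up to 120 and 118 CPM. DUSP4 had 2 naive counts and was at 40.3 and 43.9 CPM at day 8. Of the PEA3 factors, which carry the FGF signal to the genome, ETV5 rose from 0.873 to 1.80 up to 98.3 and 93.2 CPM, and ETV1 and ETV4 rose as well. The immediate early genes EGR1 and FOS reached 20.5 and 16.6, and 17.9 and 25.8 CPM from at most 0.664 and 1.11 CPM in the naive libraries. PHLDA1 rose 26.9-fold, and CCND1, the cyclin that couples ERK to the cell cycle, 58.1-fold to 326 and 261 CPM. The smallest rise was in IL17RD, which binds FGF receptors, from 32.1, 48.7, 36.8 and 39.5 to 114 and 101 CPM.

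**Figure D3:**
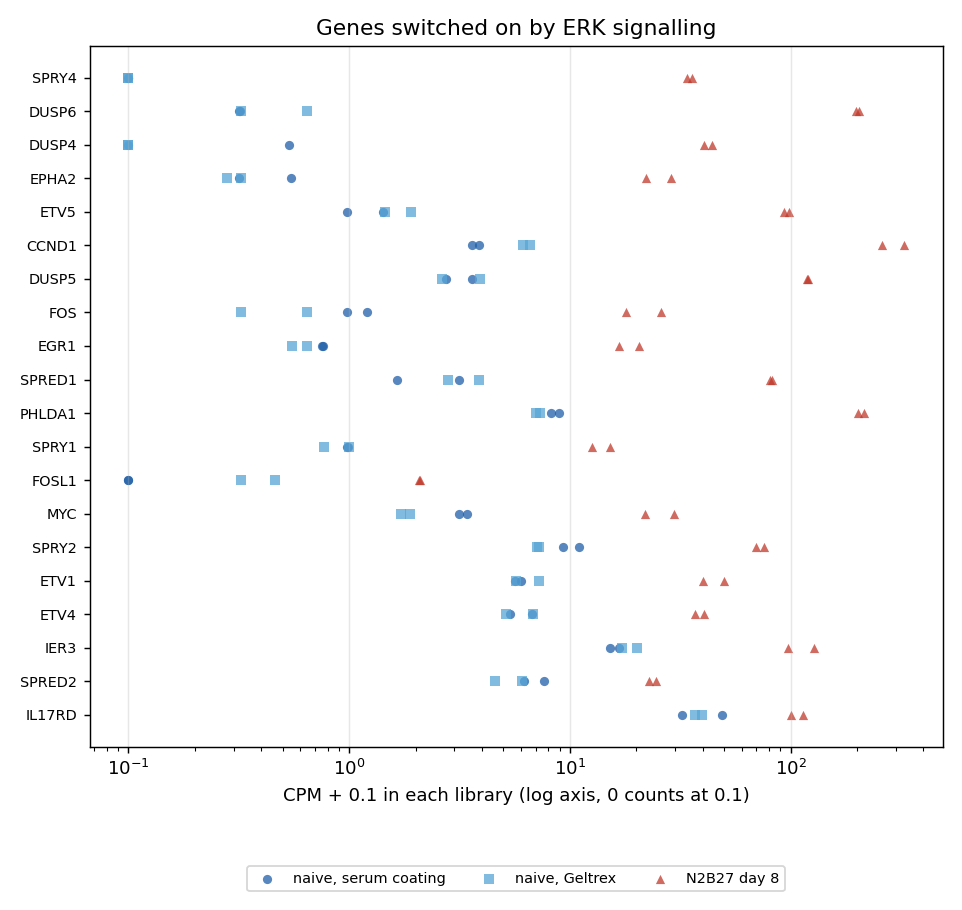
Level of the 20 tested ERK feedback and target genes in each library, as CPM + 0.1 on a log axis, ordered by the size of the rise. The red day 8 points lie to the right of all naive points for every gene, from SPRY4 with no naive count to IL17RD with 32.1 to 48.7 CPM.

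Ligands and receptors of the FGF family moved in both directions. Of 13 tested, 7 rose, 1 fell and 5 were not called (53.8% higher and 7.69% lower, against 17.9% and 7.6% of all genes). FGF2 rose 8.97-fold, from 27.7, 27.5, 27.2 and 25.6 to 233 and 251 CPM, while FGF4 fell, as given above. FGFR1 rose 5.85-fold from 89.9, 76.2, 84.8 and 73.6 to 492 and 456 CPM. FGFR2 was at 36.2 to 39.4 against 33.3 and 28.4 CPM, FGFR3 at 79.0 to 85.3 against 50.9 and 54.6 CPM, and FGFR4 at 8.48 to 13.7 against 10.4 and 14.6 CPM, none of them called.

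The NODAL branch showed mixed values. Of 18 genes 7 rose, 1 fell and 10 were not called (38.9% higher and 5.56% lower, against 17.9% and 7.6% of all genes). NODAL was at 155, 180, 218 and 215 CPM in naive cells and at 148 and 137 CPM at day 8. Its feedback inhibitors LEFTY1 and LEFTY2 are near-identical neighbours that moved apart: LEFTY1 rose 2.25-fold from 60.0, 65.9, 86.6 and 77.2 to 158 and 168 CPM, and LEFTY2 fell 3.71-fold from 73.5, 98.7, 121 and 121 to 30.8 and 25.3 CPM. Reads could be shared between them. FST, which binds activins, rose from 2.47 to 5.02 up to 63.2 and 50.8 CPM, and the co-receptor CFC1 from 1 naive count to 9.03 and 8.13 CPM.

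BMP genes rose in 12 of 18 cases and fell in none. BMP4 went from 10.6, 13.97, 13.2 and 12.5 to 172 and 156 CPM, and BMP7 from 1.08 to 2.24 up to 23.6 and 21.9 CPM, whereas BMP2 was at 39.5 to 55.3 against 48.9 and 39.6 CPM. The ID genes, direct BMP targets, differed from each other. ID3 rose 112-fold from 1.11, 1.31, 1.57 and 1.62 to 169 and 154 CPM and ID2 from 9.43 to 13.5 up to 151 and 104 CPM, while ID1 was at 83.7, 84.1, 60.6 and 58.4 against 137 and 148 CPM, a log2 fold change of 0.99 just short of the threshold. ID1 was called under other scalings, and at 1.09, 1.10 and 1.04 without naive serum replicate 1, naive serum replicate 2 and day 8 replicate 1. The inhibitors SMAD6 and BAMBI rose, and the extracellular antagonist NOG went from 3 naive counts to 23.8 and 14.8 CPM.

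WNT targets and antagonists rose in 11 of 21 cases and fell in 2 (52.4% and 9.52%, against 17.9% and 7.6% of all genes). SP5, a transcription factor that WNT induces, rose 84.1-fold from 1.55, 3.06, 0.898 and 2.53 to 179 and 169 CPM. AXIN2, the most widely used readout of the same pathway, was at 55.6, 41.1, 35.7 and 34.1 against 42.1 and 54.4 CPM, with overlap and a log2 difference of 0.22 ± 0.18 (SE, edgeR adjusted p = 0.3097). LGR5 and NKD1 rose to at most 10.1 CPM, and DKK1, an antagonist with no naive count, reached 3.31 and 2.71 CPM. KREMEN2 and ZNRF3, which both act against the receptors, fell to 6.83 and 8.85, and to 17.6 and 28.9 CPM. ZNRF3 lost the call in 12 of the alternatives tried, with log2 fold changes of -0.45 with naive Geltrex alone, -0.67 with naive libraries of both experiments, -0.70 without naive serum replicate 1, -0.93 without naive serum replicate 2 and -0.71 without day 8 replicate 1. Of 20 ligands and receptors 9 rose and 6 fell (45% and 30%, against the same 17.9% and 7.6%). WNT5A and its receptor ROR1, of the branch without beta-catenin, rose from 0, 0.655, 0 and 0.180 to 42.5 and 39.7 CPM and from 1.99 to 2.62 up to 69.2 and 57.98 CPM. Frizzled receptors went both ways: FZD7 rose from 0.180 to 0.664 up to 65.0 and 74.1 CPM, FZD6 and FZD8 fell, and FZD5 was at 305 to 367 against 258 and 278 CPM.

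LIF was present in PXGL and absent from N2B27. Of 16 genes of the LIF, JAK and STAT3 axis 4 rose and 3 fell (25% and 18.8%, against 17.9% and 7.6% of all genes). The receptor LIFR rose 10.7-fold from 9.30, 11.1, 10.3 and 8.66 to 114 and 96.8 CPM, and the feedback inhibitor SOCS3, itself a STAT3 target, from 0.437 to 1.80 up to 26.4 and 22.4 CPM. PIM1 rose 3.62-fold with the largest gap between the day 8 libraries of this list, 329 and 455 CPM. IL6R fell 4.45-fold from 156, 166, 145 and 159 to 36.1 and 34.1 CPM, and STAT3 was at 14.97 to 23.5 against 23.4 and 24.4 CPM.

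Genes tied to YAP and TEAD, which answer cell shape and stiffness, rose in 9 of 20 cases and fell in 1. AMOTL2, a YAP target and inhibitor, rose from 8.63, 5.68, 3.82 and 5.23 to 190 and 210 CPM, and AMOTL1 and AXL rose as well. YAP1 was at 35.0 to 52.2 against 56.0 and 55.4 CPM, TEAD4 at 34.1 to 46.5 against 44.3 and 40.8 CPM, and TEAD1 and TEAD3 rose. NF2, an upstream inhibitor of YAP, fell 4.11-fold from 145, 110, 102 and 93.1 to 25.1 and 29.3 CPM. The table holds the YAP targets CCN1 and CCN2 under their older symbols, which the list did not have. CYR61 rose from 11.1, 13.5, 12.1 and 12.6 to 188 and 209 CPM and CTGF from 10.6, 7.86, 7.86 and 11.4 to 111 and 155 CPM. Notch genes rose in 8 of 16 cases and fell in none: HES1 went from 1.77, 0.437, 0.673 and 1.08 to 59.7 and 72.8 CPM, NOTCH2 and NOTCH3 rose to at most 20.6 CPM, and DLL3 was at 83.7 to 107 against 150 and 157 CPM.

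Retinoid genes rose in 10 of 16 cases and fell in none. CYP1B1, a cytochrome that oxidises retinol and steroids, rose 47.4-fold from 12.2, 12.9, 15.04 and 13.2 to 702 and 561 CPM (chromosome 2, 38066973-38109902). CYP26A1, which degrades retinoic acid and is induced by it, rose from 0.443, 0.437, 0 and 0.541 to 107 and 125 CPM. The binding proteins CRABP1 and CRABP2 rose to 33.7 to 39.2 CPM.

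On the primitive streak and mesoderm list, which holds transcription factors and receptors, 14 of 19 tested genes were called higher (17.9% of all genes were). The median log2 fold change was 5.30, or 5.27 with genes of 3 or fewer counts in a group at their ratio or bound, of which there were 7. The list holds 23 genes, and the filter left out those low in every group, which can raise these figures. EOMES, which starts mesendoderm, went from 1.11, 0.655, 0.898 and 1.08 to 74.5 and 56.4 CPM, LHX1, of anterior mesendoderm, from 0.664 to 1.80 up to 151 and 118 CPM, and MIXL1 from 9.96, 17.2, 19.98 and 20.2 to 145 and 100 CPM. EVX1, GSC and FOXC2 reached 8.85 to 35.6 CPM. HAND1, of extraembryonic and lateral mesoderm, had no naive count and was at 20.3 and 15.3 CPM. MEIS2 fell by 1.07 on the log2 scale, and was not called without naive serum replicate 1 (-0.955), without day 8 replicate 2 (-0.885), with naive Geltrex alone (-0.876) or with naive libraries of both experiments (-0.785). TWIST1 was at 2.62 to 4.94 against 4.63 and 3.25 CPM, and MSGN1 of the presomitic mesoderm had no count in any of the 6 libraries.

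Endoderm and hypoblast genes rose in 13 of 16 tested cases of 21 listed (17.9% of all genes did) and fell in none, with a median of 4.42. The 3 not called went down to -0.92 on the log2 scale. CER1, OTX2 and COL4A1 are among the 13 and are on other lists as well. FOXA2 went from 0.221, 0.437, 0.224 and 0.361 to 43.6 and 28.2 CPM, GATA6 from 0.885, 0.655, 0.224 and 0 to 31.3 and 32.2 CPM, and CXCR4, a surface marker of definitive endoderm, from 0.664 to 1.53 up to 103 and 74.4 CPM. GATA4 and PDGFRA, which are also hypoblast genes, reached 19.4 and 14.8, and 18.1 and 13.9 CPM. APOA1, an apolipoprotein of yolk sac and liver, had no naive count and was at 21.6 and 17.5 CPM. Later liver products were near 0: AFP had 3 and TTR 0 counts in both day 8 libraries together. HNF4A was at 5.53 to 10.3 against 7.05 and 5.78 CPM.

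Trophectoderm and amnion lists were split. Of 17 trophectoderm genes 9 rose and 3 fell (52.9% and 17.6%, against 17.9% and 7.6% of all genes). The trophoblast factors GCM1 and DLX3 fell from 15.5, 19.4, 17.1 and 21.3 to 1.10 and 0.723 CPM and from 14.6, 20.5, 16.4 and 19.7 to 1.32 and 1.44 CPM. Rises included NR2F2, GATA2 and ENPEP, the last from 0.221 to 0.437 up to 25.6 and 19.7 CPM. KRT7, ELF5 and VGLL1 had at most 4 counts on either side and were not tested. Of 13 amnion genes 7 rose and 1 fell (53.8% and 7.69%, against 17.9% and 7.6% of all genes), with a median log2 fold change of 1.61. BAMBI, which the study used as an amnion marker, was among the rises at 1.27 on the log2 scale. GABRP, without a naive count, was at 2.86 and 1.44 CPM, ISL1 at 7.08 to 9.39 against 6.39 and 5.24 CPM, and VTCN1 had 1 count in the 6 libraries.

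Neural genes rose in 13 of 19 cases. DPYSL3, which guides growth cones, rose from 38.1, 42.4, 48.2 and 47.5 to 399 and 354 CPM, NNAT, an imprinted gene of the embryonic brain, from 5.31, 7.42, 10.6 and 5.41 to 233 and 210 CPM, and the intermediate filament gene NES from 40.6 to 52.5 up to 167 and 177 CPM. The factor PAX6 reached 1.98 and 1.99 CPM and was not called without day 8 replicate 2 (edgeR adjusted p = 0.05556). SOX21 fell, TUBB3 was at 142 to 154 against 167 and 147 CPM, and SOX1 had 2 naive and 1 day 8 count in all. The forebrain factors SIX6 and FEZF2 had no count in any library. Of the 7 tested genes of the HOX list, which does not hold every HOX gene, 5 rose and 1 fell. HOXA10 and HOXC6 went from at most 0.449 and 0.664 CPM to 10.1 and 4.88, and 10.6 and 7.41 CPM, and HOXB2 fell from 36.5, 30.1, 23.8 and 25.1 to 3.75 and 4.88 CPM. In the Iroquois family IRX3 fell from 73.0, 98.9, 78.3 and 95.8 to 20.7 and 13.4 CPM, IRX1 rose to 10.4 and 7.41 CPM, and IRX2 was at 193 to 223 against 118 and 108 CPM.

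Genes of the human 8-cell embryo, which are transcribed when the embryonic genome is activated, rose in 11 of 13 cases. CCNA1, an A-type cyclin of germ cells and early embryos, went from 12.6, 15.1, 16.8 and 16.8 to 136 and 162 CPM, 9.68-fold. TPRX1, a homeobox factor of this stage (chromosome 19, 47801232-47819051), went from 3.099, 4.37, 5.84 and 5.05 to 34.8 and 38.3 CPM, and TRIM43 from 4.43, 2.62, 4.94 and 4.33 to 37.9 and 42.8 CPM. MBD3L2, RFPL2, SLC34A2 and PRAMEF12 reached 11.02 to 27.3 CPM, and ZSCAN4 8.59 and 8.67 CPM. The 2 that fell were ARGFX and KLF17, which are naive factors as well. LEUTX, DUXA and DPRX, which define the stage, had 2, 4 and 8 naive counts and 11, 10 and 17 day 8 counts in all, too few to be tested. MBD3L2, TRIM43, TRIM49, PRAMEF and RFPL genes belong to families with near-identical copies, so that their counts may be shared with unlisted members. Maternal complex genes fell in 5 of 8 cases (7.6% of all genes did) and rose in none. NLRP2, NLRP7 and KHDC1L among them are also on the list of other naive markers, so that the 2 counts overlap. Germ cell genes fell in 3 of 13 cases (23.1%, against 7.6% of all genes) and rose in none. MAGEB2 fell from 37.6, 39.3, 42.0 and 41.7 to 3.75 and 4.16 CPM, and SYCP3, of the meiotic chromosome axis, 2.95-fold.

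Of 24 epithelial adhesion genes 3 rose and 2 fell (12.5% and 8.33%, against 17.9% and 7.6% of all genes). CDH1, E-cadherin, was at 604, 690, 610 and 617 against 380 and 400 CPM, and EPCAM at 292 to 338 against 499 and 489 CPM, both short of the fold threshold. CDH3 and OCLN rose 2.90-fold and 2.94-fold, and F11R, a junctional adhesion molecule, fell 2.45-fold. Mesenchymal and neural adhesion genes rose in 18 of 20 cases and fell in none. CDH11 went from 1.62 to 3.06 up to 52.2 and 59.4 CPM. Among protocadherins as a whole, 18 of 35 tested rose (51.4%) and none fell, with PCDH1 at 6.28 to 9.17 against 61.0 and 57.8 CPM and PCDH19 at 0.664 to 1.75 against 25.6 and 28.7 CPM. ZEB2 and SNAI2 rose to 6.50 to 9.47 CPM, and SNAI1 was at 17.5 to 22.7 against 27.5 and 23.3 CPM.

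Of 12 intermediate filament genes 7 rose, 1 fell and 4 were not called. The simple-epithelium keratins KRT8, KRT18 and KRT19 went from 17.7 to 28.8, 18.1 to 23.1 and 16.6 to 20.6 CPM up to 187 and 205, 466 and 431, and 131 and 109 CPM. VIM, vimentin, had 3 naive counts, all in 1 Geltrex library, and was at 77.3 and 89.8 CPM at day 8. INA, an internexin, fell from 60.7, 70.7, 75.2 and 78.7 to 24.2 and 25.1 CPM. Of 23 actin genes 16 rose and none fell. Muscle-type isoforms started near 0: ACTA1 went from 1.11, 0.218, 0 and 0.361 to 75.6 and 82.9 CPM, ACTC1 from at most 0.443 to 51.8 and 52.4 CPM, and TAGLN 94.9-fold to 130 and 134 CPM. The cytoplasmic ACTB was at 596 to 851 against 1007 and 1005 CPM, and ACTG1 at 1747 to 2321 against 2961 and 2690 CPM, neither of them called.

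Matrix and integrin genes rose in 30 of 38 cases and fell in none (median 3.21, or 3.16 with genes of 3 or fewer counts in a group at their ratio or bound). Basement membrane collagen genes COL4A1 and COL4A2 went from 5.84 to 9.08 and 5.68 to 7.08 CPM up to 102 and 105.5, and 101 and 101 CPM. COL18A1 went from 3.54 to 5.46 up to 170 and 140 CPM, and VCAN, versican, from 43.8 to 52.7 up to 466 and 419 CPM. The integrin beta 1 chain gene ITGB1 rose 3.42-fold, and ITGA6, of the laminin receptor, was at 90.03 to 112 against 126 and 128 CPM. On the list of fibroblast genes, 11 of 15 rose, and the summed level of the list went from 25.1 to 34.1 CPM in naive libraries to 418 and 429 CPM. COL1A2 rose 198-fold to 138 and 142 CPM. On the same list DCN and FAP had 0 counts at day 8, LUM went from 0 to 10 counts, and POSTN was at 0 and 0.542 CPM. The part of fibroblasts in these levels was not tested. Without day 8 replicate 1 the lone POSTN value was called higher (edgeR adjusted p = 0.03766). Of 36 ephrin and guidance genes 24 rose and 2 fell, with SEMA3A at 1.99 to 3.25 against 89.7 and 84.9 CPM and EPHA4 at 0.180 to 1.35 against 26.9 and 19.5 CPM.

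Genes of glucose uptake and its first step were among those that rose. Of 27 glycolysis genes 11 rose and none fell (median 0.53). SLC2A1, the transporter GLUT1, rose 5.86-fold from 61.5, 46.9, 55.9 and 54.1 to 322 and 318 CPM. The entry enzyme HK1 rose 11.7-fold from 18.4, 19.2, 24.2 and 20.4 to 252 and 230 CPM, while its isoform HK2 was at 91.2 to 118 against 104 and 115 CPM. PGK1, GAPDH, PKM and LDHA were not called, with log2 fold changes of 0.26 to 0.98. LDHA, the highest of these, was called under other scalings, and at 1.12, 1.09 and 1.02 without naive Geltrex replicate 1, naive Geltrex replicate 2 and day 8 replicate 2. TXNIP, which limits glucose uptake and is induced by glucose, rose 12.8-fold. Genes of the low-oxygen list, which shares 2 genes with the glycolysis list, rose in 11 of 16 cases and fell in none. ADM, adrenomedullin, went from 2.88, 1.53, 2.02 and 2.17 to 112 and 87.6 CPM, and BNIP3 from 126, 141, 196 and 195 to 460 and 430 CPM.

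Respiratory chain genes were lower by less than the threshold in most cases. Of 57 nuclear genes of complexes I, III and V 7 fell (12.3%, against 7.6% of all genes), none rose and 50 were not called, with a median log2 fold change of -0.48. ATP5MC1 and NDUFA12 fell 2.25-fold and 2.56-fold. On the list of cytochrome c oxidase subunits only COX7A1 was called, which rose from 0 to 1.12 up to 5.29 and 6.14 CPM. Of 13 protein genes of the mitochondrial genome MT-ND6 fell (7.69%, near the 7.6% of all genes) and the others were not called (median -0.27). Its log2 fold change of -1.15 was -0.95 without naive serum replicate 1 and -0.99 without day 8 replicate 2, and -0.74 with naive Geltrex alone and -0.80 with naive libraries of both experiments, each of which ends the call. Mitochondrial ribosomal protein genes had a median of -0.43 over 80 genes, and cytosolic ribosomal protein genes one of -0.03 over 81.

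Sterol and fatty acid synthesis genes were called higher in 4 of 28 cases (14.3%, against 17.9% of all genes) and lower in none, with SC5D at 15.1 to 19.1 against 76.9 and 75.3 CPM. Of 22 p53 targets 7 rose (31.8%, against 17.9% of all genes) and none fell. With naive libraries of both experiments 3 rose, and neither CDKN1A nor GDF15 passed, at log2 fold changes of 0.93 and 0.97. CDKN1A went from 11.3, 9.39, 18.6 and 17.7 to 60.4 and 59.8 CPM and GDF15 from 82.6, 95.2, 121 and 112 to 374 and 391 CPM, while MDM2 was at 440 to 484 against 481 and 468 CPM. Of 21 genes of the amino acid response 6 rose and 1 fell (28.6% and 4.76%, against 17.9% and 7.6% of all genes). The arginine transporter gene SLC7A3 (4.67-fold) and CTH were among the rises. Metallothionein genes, which bind zinc and copper, fell in 9 of 10 cases. MT1G fell 2.81-fold from 1389, 1387, 1185 and 1105 to 450 and 450 CPM and MT1H 4.002-fold from 691, 746, 641 and 647 to 170 and 171 CPM. These genes share much of their sequence, and reads may be split between them. Of 28 listed solute carrier genes 11 rose, 4 fell and 13 were not called (39.3% higher and 14.3% lower, against 17.9% and 7.6% of all genes). Over all 227 genes with an SLC symbol the shares were 23.3% and 15.9%. SLC7A8 rose from 75.0, 76.0, 94.7 and 84.6 to 386 and 407 CPM, SLC16A10, which carries aromatic amino acids, fell 5.64-fold, and the creatine transporter gene SLC6A8 3.56-fold.

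D-type cyclin genes moved in opposite directions. CCND2 went from 0.885, 4.37, 3.59 and 1.62 to 601 and 568 CPM, 225-fold, CCND3 from 90.5, 93.7, 102 and 87.7 to 25.3 and 22.8 CPM, and their partner CDK6 rose 21.1-fold to 114 and 100 CPM. CCNE1 and E2F1, of the G1 to S transition, fell 2.35-fold and 2.22-fold. The proliferation markers MKI67 and TOP2A were at 218 to 252 against 199 and 190 CPM and at 968 to 1083 against 1289 and 1126 CPM. Of 31 cell cycle genes 4 rose and 4 fell (12.9% each, against 17.9% and 7.6% of all genes). Of 26 imprinted genes 6 rose (23.1%, against 17.9% of all genes), or 3 without day 8 replicate 2, and 1 fell. PEG10 rose from 36.7, 28.8, 28.5 and 20.6 to 292 and 260 CPM, DIRAS3 fell from 5.61 to 7.08 to 1.32 and 1.44 CPM, and H19 was at 68.3 to 76.1 against 157 and 127 CPM, just under the fold threshold, and called under other scalings and without day 8 replicate 2, naive serum replicate 1 or naive Geltrex replicate 1, at 1.12, 1.02 and 1.01 on the log2 scale. RNA-binding proteins rose in 8 of 21 cases and fell in none, with ELAVL2 at 4.33 to 9.74 against 40.8 and 43.0 CPM.

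**Figure D4:**
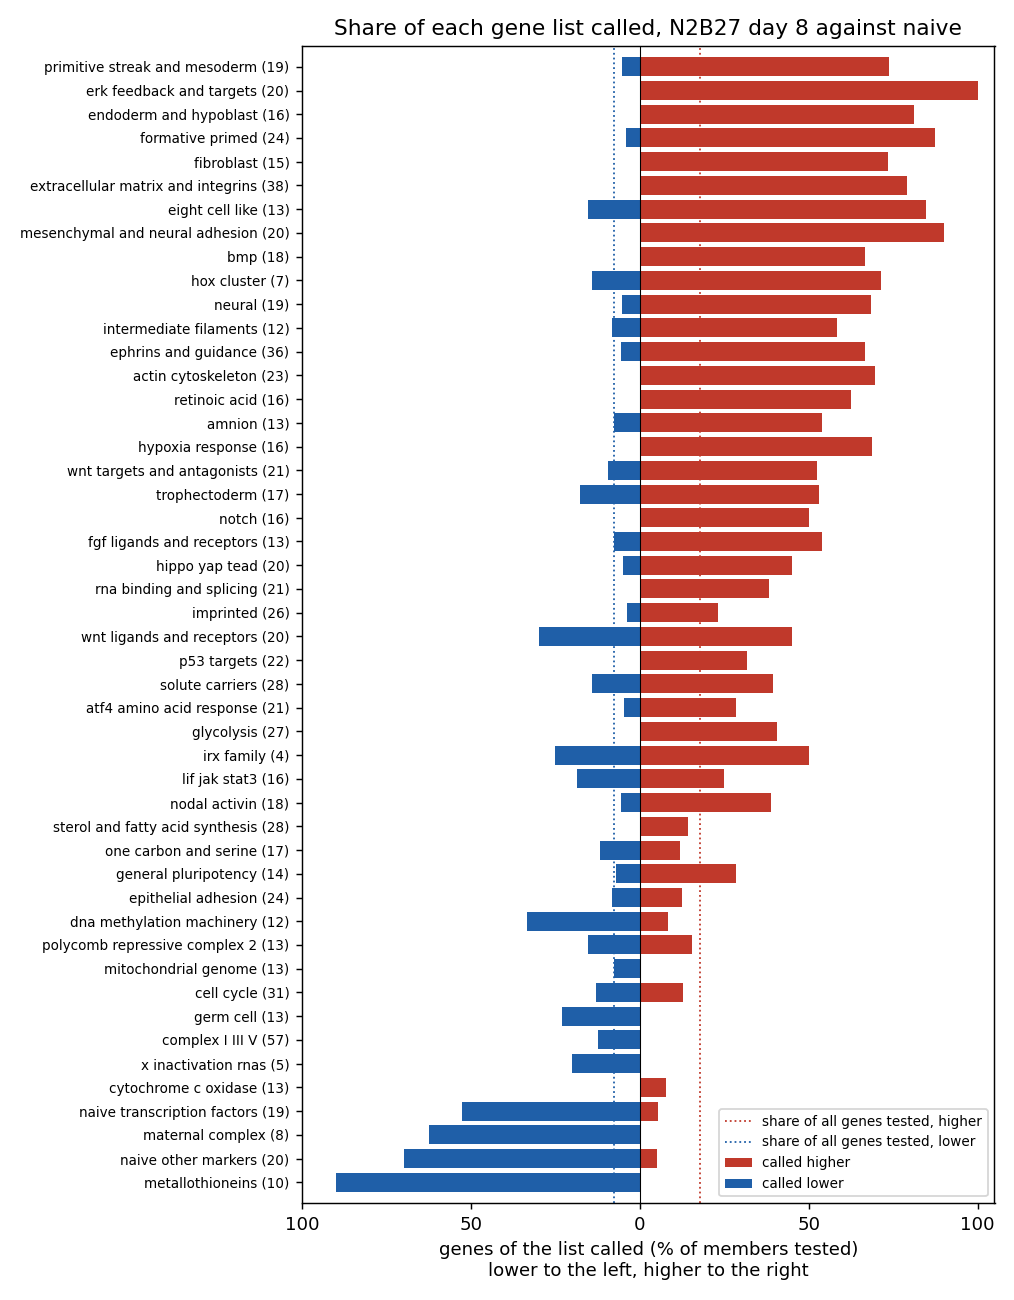
Share of the tested members of each gene list called higher (red, to the right) and lower (blue, to the left), with the number of members in brackets and lists ordered by median log2 fold change. Dotted lines mark the shares of all genes tested, 17.9% higher and 7.6% lower. The ERK list reaches 100% higher and the metallothionein list 90% lower.

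The days between show when the day 8 levels arose. SPRY4, KRT18, SFRP2 and JARID2 were at 43.6 ± 2.17, 476 ± 48.1, 55.8 ± 8.03 and 1028 ± 46.4 CPM (SD, n = 2) by day 2, as high as or higher than at day 8. SPIC was at 2.01 ± 0.832 CPM at day 2 and at 0 in both libraries at day 6, and ITGAM fell from 7.86 ± 1.05 CPM at day 2 to 0.872 ± 0.727 CPM at day 4. KLF4 declined over more days, with 77.5 ± 19.99, 44.5 ± 2.87, 26.7 ± 1.00 and 10.4 ± 2.36 CPM at days 2, 3, 4 and 6. SOX17, of endoderm, was at 0.350 ± 0.241 CPM at day 4, 14.8 ± 1.53 CPM at day 6 and 60.7 ± 3.30 CPM at day 8, and APOA1 at 0.504 ± 0.712 CPM at day 6 and 19.6 ± 2.88 CPM at day 8. CCNA1 and TRIM43 were at 72.2 ± 4.24 and 23.9 ± 5.88 CPM at day 2.

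**Figure D5:**
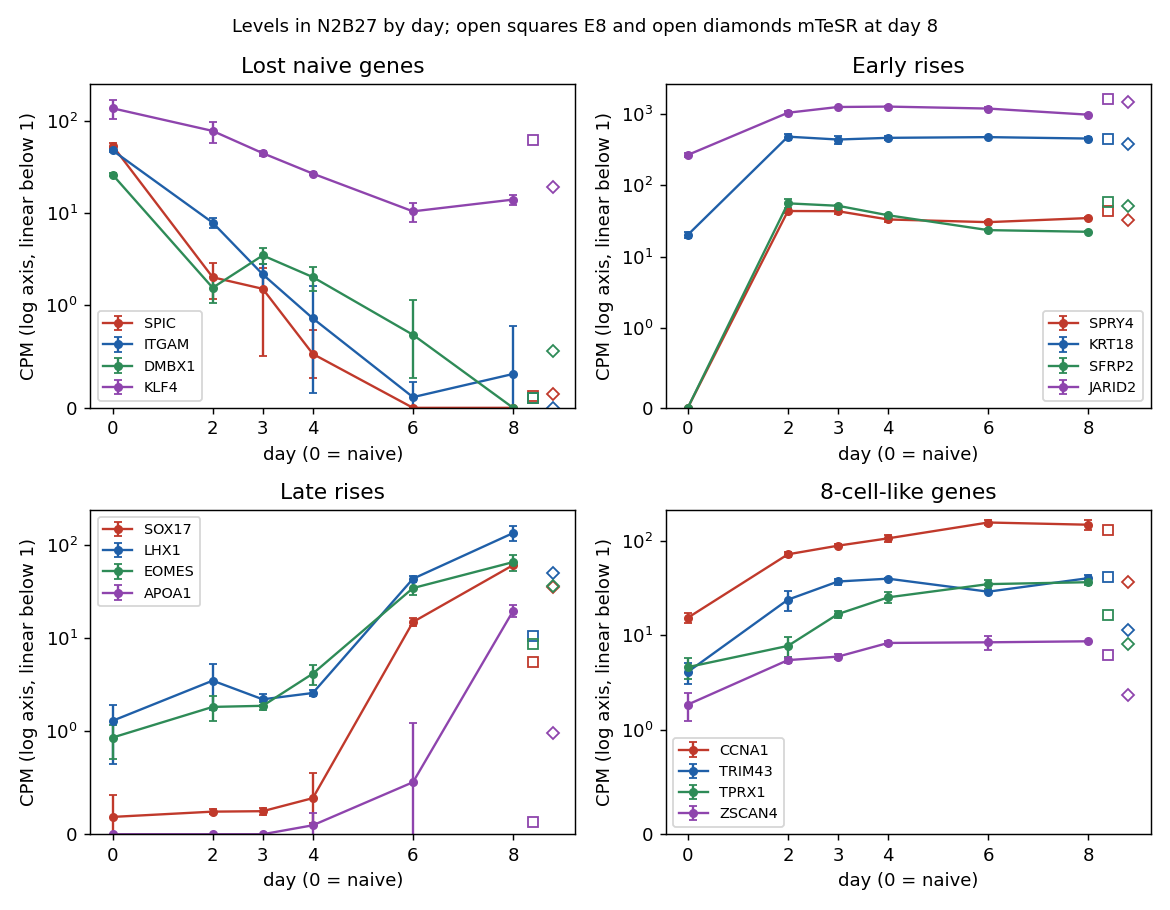
Mean level of 16 genes by day in N2B27, with SD bars (4 naive libraries at day 0, 2 at each other day), on an axis that is logarithmic above 1 CPM and linear below. Open squares and diamonds give the means in E8 and mTeSR at day 8. SPRY4 and KRT18 reach their level by day 2, while SOX17 and APOA1 rise between days 4 and 8.

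Between day 6 and day 8 in N2B27, 227 genes were called (1.36%), 185 of them higher. This count fell to 138 without day 6 replicate 1 and to 112 without either day 6 replicate 2 or day 8 replicate 1. Of the 16 endoderm genes 13 rose in these 2 days, with a median of 1.47, as did 7 of 18 BMP genes and 6 of 19 primitive streak genes. Of the 20 ERK genes EPHA2 rose and none fell in this interval. The largest rises and falls were chosen on the same day 8 libraries, which favours a further change, so their calls here are given as a description. Of the 12 largest rises against naive cells 5 were called higher than at day 6 (CST1, CST4, CST2, ERBB4 and ANKRD1), while DUSP6 and NTS were 0.98 higher on the log2 scale, just under the threshold. None of the 12 largest falls was called, with the lowest adjusted p (edgeR) at 0.05066 for DMBX1.

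Cells in the commercial media E8 and mTeSR at day 8 were compared with N2B27 at the same day. Both contain FGF2 and a TGF-beta family ligand. E8 differed from N2B27 at day 8 in 1195 genes (7.17%), a count that fell to 736 without E8 replicate 1 and to 721 without N2B27 replicate 1, and mTeSR in 617 genes (3.7%), which fell to 345 without mTeSR replicate 2 and to 390 without N2B27 replicate 1. Both comparisons share the N2B27 libraries. The 12 largest falls were not called in either medium, but EXPH5 was just under the fold threshold in E8, 0.99 higher on the log2 scale (edgeR adjusted p = 0.01583), and DMBX1 in mTeSR had an edgeR adjusted p of 0.06921. SPIC was at 0.118 ± 0.167 CPM in E8 and 0.136 ± 0.192 CPM in mTeSR (SD, n = 2). Of the 12 largest rises 9 were lower in E8 and 7 lower in mTeSR than in N2B27, and SFRP2 was higher in both. KLF4, which fell against naive cells in N2B27, was 2.13 ± 0.22 higher on the log2 scale in E8 (SE, edgeR adjusted p = 1.92e-08), at 61.4 ± 4.88 CPM against 13.98 ± 1.69 CPM in N2B27 (SD, n = 2).

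Of all genes 3.93% were lower in E8 than in N2B27 and 2.09% lower in mTeSR. Of 19 primitive streak and mesoderm genes 13 were lower in E8 and 9 in mTeSR, and of 16 endoderm genes 13 and 5. WNT targets and antagonists were lower in 14 and 3 of 21 cases, WNT ligands and receptors in 5 and 2 of 20 cases, and genes of the HOX list in 6 and 2 of 7 cases. LHX1 was at 134 ± 23.6 CPM in N2B27, 10.5 ± 0.225 CPM in E8 and 49.7 ± 9.64 CPM in mTeSR, and SP5 at 174 ± 7.20, 21.1 ± 6.93 and 129 ± 4.25 CPM. Of 13 genes of the 8-cell list 1 was lower in E8 (median -0.24) and 10 were lower in mTeSR (median -1.87), with none higher in either. CCNA1 was at 149 ± 17.9 CPM in N2B27, 129 ± 20.1 CPM in E8 and 37.1 ± 2.55 CPM in mTeSR, and TPRX1 at 36.6 ± 2.47, 16.5 ± 1.63 and 8.00 ± 0.951 CPM. Of the 20 ERK genes DUSP6 and EGR1 were lower in both media and ETV1 was higher in both, while ETV4 was higher in E8. DUSP6 was at 201 ± 5.24 CPM in N2B27, 67.6 ± 5.58 CPM in E8 and 55.5 ± 1.39 CPM in mTeSR.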

How the data were processed

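QuantSeq 3′ mRNA libraries of the Shef6 line were sequenced single-end. The authors made the deposited counts with the nf-core/rnaseq pipeline against hg38, with FastQC 0.11.9, STAR 2.7.10a and Salmon 1.9.0. The annotation release and strand setting are not given in the sources used here. The deposited table holds whole-number raw counts per gene symbol, 57133 symbols in 38 libraries, and no normalization. All were used as deposited.

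Groups were taken from the sample labels. Genes were filtered with filterByExpr, which left 16674 genes with 99.65% of the counts. TMM factors were computed and the quasi-likelihood model of edgeR 4.0.16 (R 4.3.3) was fitted to all 38 libraries in 18 levels of medium, day and experiment, with the 4 naive libraries of this experiment as 1 level. Adjusted p-values cover all genes tested, and calls needed an adjusted p under 0.05 and a log2 fold change over 1 in size. The tests are two-sided and were checked on simulated counts.

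Genes were named by rule: the 12 largest rises and 12 largest falls by fitted fold among called genes whose higher group averaged 20 CPM or more and whose libraries did not overlap, the 6 most abundant called genes in each direction, and members of 48 lists. The members and lists were chosen with earlier results of these data known. Some of these genes are not reported here. CTGF and CYR61 were added after their values were seen. Where a group had 0 counts, folds are bounds against 3 counts over the group. Where it had 1 to 3, the ratio of scaled counts is given with its exact 95% interval.

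Depth was 4383985 to 5577221 counts per library. Alternatives were other scalings (RLE, plain totals), filters, DESeq2 1.42.0, a replicate block, other choices of naive libraries, the compared libraries alone, and leaving out each library. Positions are from GENCODE v44 (GRCh38) and promoters from RefSeq.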

Additional observations from a re-analysis of the deposited data

Results flagged for a closer look

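Named genes were screened for a naive library standing apart from the other 3 by Dixon's criterion. Of 256 genes 12 passed it, where chance passes about 1 in 20 groups, which gives a similar number. In naive serum replicate 1, POU5F1 was high at 560.5 CPM (others 363.1 to 389.5), PDGFRA high at 1.992 CPM (0.5412 to 0.6733), and CTH low at 30.99 CPM (34.28 to 34.72). In naive serum replicate 2, CDH1 was high at 690 CPM (603.8 to 616.8) and NR2F2 at 2.402 CPM (0.3608 to 0.664). In naive Geltrex replicate 1, SLC2A3 was high at 265.7 CPM (228.2 to 234.5), TEAD1 at 35.24 CPM (31.44 to 31.93) and COL1A2 at 1.571 CPM (0.3608 to 0.4427), while ITGAM was low at 45.11 CPM (48.35 to 48.92). In naive Geltrex replicate 2, DPPA2 was high at 36.98 CPM (23.58 to 25.45) and SEMA3A at 3.247 CPM (1.992 to 2.183), while IRX1 was low at 0.7217 CPM (1.092 to 1.122).

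By the edgeR test between media at day 8, 10 of the 12 largest rises differed between E8 and N2B27, where 7.17% of all genes did, and 8 of the 12 differed between mTeSR and N2B27, where 3.7% did. Both tests use the same N2B27 libraries that chose the 12 genes.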

How the results depend on the processing

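The 4247 calls against naive cells became 3762 to 4862 in the alternatives, 3990 to 4256 when 1 library was left out and 3965 with DESeq2. Shares of higher calls stayed within 10 percentage points. Replicate numbers did not pair the libraries: deviations of same-numbered libraries correlated at 0.168 between the naive coatings, at -0.199 between serum and day 8 and at 0.0307 between Geltrex and day 8. A replicate block gave 4246 calls against naive cells, and 226, 1183, 612 and 11 for day 6, E8, mTeSR and the coatings.

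Of 96 list counts 73 stayed within 1.5 times in every alternative. Of the 23 that did not, genes of the HOX list called higher went from 5 to 9 with no filter, p53 targets from 7 to 3 with naive libraries of both experiments and imprinted genes from 6 to 3 without day 8 replicate 2, and the rest were counts of 4 or fewer.

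The other comparisons moved more, and the cause was not tested. Leaving out 1 library gave 112 to 179 genes between days 6 and 8, 721 to 1375 between E8 and N2B27, 345 to 449 between mTeSR and N2B27 and 0 to 139 between coatings. Where this leaves a lone library, it is assumed to vary like the other groups. With the compared libraries alone the counts were 345 between days 6 and 8 and 1 between coatings, and with no filter 106 between coatings.

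Of 213 named genes that were called, 205 kept call and direction in every alternative. The other 8 fell below a threshold in at least 1: DNMT3B, MEIS2, MT-ND6, PAX6 and ZNRF3 as given above, LEFTY1 with naive Geltrex alone (0.99), and CDKN1A and GDF15 with naive libraries of both experiments (0.93 and 0.97). Sign changed only in genes not called. With naive Geltrex alone, log2 fold changes were 0.097 for BMP2, -0.059 for HK2, -0.0060 for KHDC3L and -0.017 for TWIST1. With naive serum alone they were -0.037 for TBX3 and -0.020 for TEAD4, with naive libraries of both experiments 0.21 for BMP2, -0.053 for FGFR4 and -0.12 for MDM2, and with no filter -0.00094 for MDM2 and -0.019 for TBX3. Leaving out 1 library gave -0.28 to 0.026 for BMP2, -0.16 to 0.34 for FGFR4, -0.045 to 0.11 for HK2, 0 to 4.34 for POSTN, -0.20 to 0.19 for TBX3 and -0.072 to 0.43 for TWIST1. At this depth genes with a few counts per library, such as LEUTX, could not be tested.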

Other observations

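Called genes were spread unevenly over the chromosomes. Of 472 protein-coding genes tested on the X chromosome 32.6% were called higher at day 8 and 5.51% lower, with a median log2 fold change of 0.365, or 0.156 for the 309 genes over 10 CPM. On the autosomes 10.8% to 25.9% were called higher, and the lowest share was that of chromosome 19, with a median of -0.161 over 969 genes.

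Genes with a ZNF symbol, which mostly encode zinc finger proteins, were called higher in 22 and lower in 45 of 441 cases (4.99% and 10.2%), with a median log2 fold change of -0.22. Long noncoding RNAs with a LINC name were called higher in 42 and lower in 14 of 145 cases (29% and 9.66%, against 17.9% and 7.6% of all genes). Over all 474 lncRNAs matched to the annotation 23.8% were called higher, against 19.4% of the 12891 protein-coding genes. Of the 43 genes with a proteasome (PSM) symbol 1 rose and 3 fell (2.33% and 6.98%, against 17.9% and 7.6% of all genes).

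Of 17 genes of one-carbon and serine metabolism 2 were called higher and 2 lower (11.8% each, against 17.9% and 7.6% of all genes). Of 5 RNAs tied to X inactivation 1 was called lower and none higher.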
